A study of Homo sapiens with 23 samples.

Results

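The genes described here are 40 genes of protein folding and degradation in the endoplasmic reticulum (ER). They were chosen by name and comprise the stress sensors and transcription factors of the unfolded protein response, the chaperones and enzymes that fold secretory proteins, the machinery of ER-associated degradation and the channel through which proteins enter the ER. All 40 were found among 58592 genes with a transcript in the deposited tables, and all 40 passed the filter on low counts that left 17743 genes for testing.

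SUDHL5, a line of the germinal centre type grown from a human diffuse large B-cell lymphoma, was the source of all 23 libraries of poly(A) RNA. The treated cells received CDK-TCIP1, a bivalent molecule that joins a ligand of the BCL6 repressor to an inhibitor that binds the kinase CDK9, at 10 nM for 2 h (2 libraries), 30 nM for 2 h (4), 100 nM for 2 h (3) or 30 nM for 4 h (3). Neg1 and Neg2 are comparison compounds of unstated structure, used at 30 nM, with 2 libraries per compound at each of the times 2 h and 4 h. Vehicle cells received DMSO for 4 h (3 libraries). Every group, vehicle included, had a final DMSO content of 0.1%. One cell line was used, it is not stated if replicates came from separate cultures, and the DMSO libraries analysed here are all of 4 h.

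The ER folds membrane and secreted proteins, among them the immunoglobulin and B cell receptor chains of B cells. Unfolded protein is sensed by ERN1 (IRE1), ATF6 and the kinase PERK. ERN1 cuts a short segment out of XBP1 mRNA, and the transcription factor made from the spliced mRNA, together with cleaved ATF6, raises transcription of chaperone and degradation genes. Proteins that fail to fold are handed by lectins and mannosidases to a ubiquitin ligase in the ER membrane and moved back to the cytosol for destruction.

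Each library held between 17396484 and 26373153 estimated counts. The 40 genes span a wide range of levels in DMSO cells, from 716 TPM (abundance per transcript length) for CALR to 0.964 TPM for ERN1, with 14 genes above 100 TPM and 7 under 10 TPM. Pairs of replicates spread more widely than counting noise alone, and for most pairs the chi-square divided by its degrees of freedom lay between 4.32 and 7.86. The pair of Neg2 libraries at 2 h (13.5) and the 2 pairs with replicate 1 of CDK-TCIP1 at 100 nM (10.2 and 14.2) stood apart, and results at 2 h are therefore also given without Neg2 replicate 1 and CDK-TCIP1 100 nM replicate 1. All 10 germinal centre B cell markers were tested, and their summed level was 2500 to 2620 CPM (counts scaled to library size) in cells given CDK-TCIP1 at 30 nM for 4 h, against 2880 to 3010 CPM in DMSO cells. Of 10 plasma cell markers, 8 were tested, and their sum was 274 to 289 CPM with CDK-TCIP1 at 4 h, against 405 to 434 CPM with DMSO. The plasma cell list includes XBP1, and 3 of the 8 fell (CD27, JCHAIN and MZB1) while CD38 rose. Of the 10 germinal centre markers, 7 fell and 1 rose. Over all genes tested, 19.3% fell and 17.5% rose with CDK-TCIP1 at 4 h against DMSO (edgeR adjusted p under 0.05). T and NK cell markers summed to 1.51 to 3.92 CPM and myeloid markers to 0.521 to 1.67 CPM over all 23 libraries, with CD2 and S100A8 at 0. Epithelial and fibroblast markers summed to 34.7 to 39.5 CPM with CDK-TCIP1 at 4 h, against 46.2 to 49.2 CPM with DMSO. The part of these marker shifts in the results that follow was not tested.

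CDK-TCIP1 at 30 nM for 4 h lowered more of the ER genes than it raised. Against DMSO, 18 of the 40 fell and 4 rose (adjusted p under 0.05, edgeR quasi-likelihood test, Benjamini-Hochberg adjustment over 17743 genes, n = 3 libraries in each group). The 18 make up 45.0% of the 40, where 19.3% of all genes tested fell, and the 4 make up 10.0%, where 17.5% of all genes rose. The median log2 fold change of the 40 was -0.16, against 0.03 over all genes tested. The changes were moderate in size, between -0.72 and 0.46 on the log2 scale. The summed level of the 40 genes was 5800 to 5980 CPM in the CDK-TCIP1 libraries, against 6400 to 6810 CPM in the DMSO libraries, and HSPA5, CALR, CANX and PDIA3 together held 42.2 to 42.6% of that sum with CDK-TCIP1, against 48.3 to 49.5% with DMSO. In a bulk library, fewer cells of a kind and less RNA per cell cannot be told apart, nor would a common change of every mRNA be seen.

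**Figure D1:**
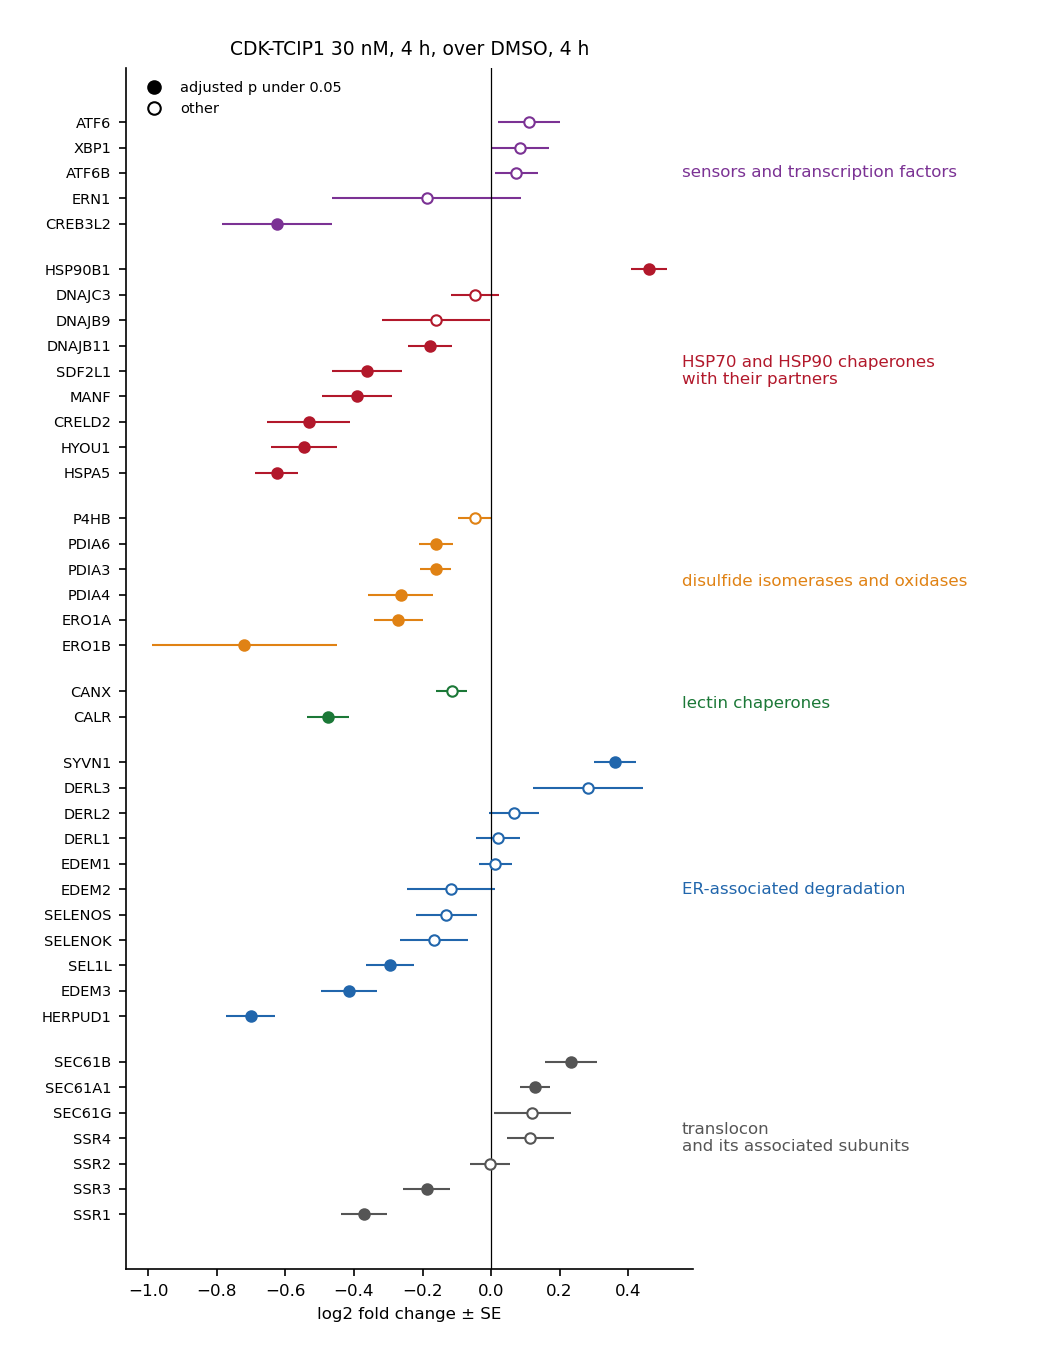
The 40 ER genes by role, with the log2 fold change of CDK-TCIP1 at 30 nM for 4 h over DMSO for 4 h on the horizontal axis and bars of 1 SE. Filled points passed an adjusted p of 0.05. Most filled points lie left of 0, and HSP90B1 at 0.46 and SYVN1 at 0.36 lie farthest right.

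Of the 5 sensors and transcription factors, 1 fell and none rose against DMSO. ERN1, the sensor that splices XBP1 mRNA (ENSG00000178607, GRCh38 chromosome 17, 64039142 to 64130819, minus strand), had the lowest TPM of the 40 in DMSO cells. It had 1.56, 1.91 and 2.26 CPM with CDK-TCIP1 at 4 h, against 1.72, 2.07 and 2.72 CPM with DMSO. The libraries of both groups overlapped, and the log2 fold change was -0.19 ± 0.28 (± SE; edgeR adjusted p = 0.642). With counts scaled by transcript length the sign turned, to 0.54.

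XBP1, the transcription factor that ERN1 activates (ENSG00000100219, chromosome 22, 28794555 to 28800597, minus strand), had 44.4, 47.3 and 51.3 CPM with CDK-TCIP1 at 4 h, against 41.1, 46.8 and 46.9 CPM with DMSO. The groups overlapped, and the log2 fold change was 0.09 ± 0.08 (edgeR adjusted p = 0.462). The Neg1 and Neg2 libraries at 4 h were higher than both, at 53.5 to 55.9 CPM. Against them the 3 CDK-TCIP1 libraries did not overlap, and XBP1 passed the test as lower by a small margin, with a log2 fold change of -0.20 ± 0.08 (edgeR adjusted p = 0.044). That call was lost without replicate 2 (-0.15) or replicate 3 (-0.20) of CDK-TCIP1 at 4 h and without any of the 4 Neg libraries (-0.19 to -0.22).

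ATF6, the sensor that is cut in the Golgi to release a transcription factor (ENSG00000118217, chromosome 1, 161766294 to 161964070, plus strand), had 42.6, 43.0 and 48.3 CPM with CDK-TCIP1 at 4 h, against 38.0, 42.7 and 43.4 CPM with DMSO. The groups overlapped, with a log2 fold change of 0.11 ± 0.09 (edgeR adjusted p = 0.375), and its relative ATF6B had one of 0.07 ± 0.06. CREB3L2, another membrane-bound factor, which raises secretory pathway genes (ENSG00000182158, chromosome 7, 137874979 to 138002067, minus strand), was the member of this class that fell. It had 6.5, 7.48 and 7.86 CPM with CDK-TCIP1 at 4 h, against 10.4, 10.4 and 12.9 CPM with DMSO. Every CDK-TCIP1 library was below every DMSO library, and the log2 fold change was -0.62 ± 0.16 (edgeR adjusted p = 0.00308).

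XBP1 mRNA exists in an unspliced and a spliced form that differ by the segment ERN1 removes. The forms are printed because the share of the spliced one reads the activity of that arm. The unspliced line is from the main coding transcript of GENCODE 29, with 30 bases on each side of the segment, and capitals mark the 26 bases that the spliced transcripts lack. On chromosome 22 of GRCh38, minus strand, 1 of the 2 spliced transcripts is annotated to lack 28796122 to 28796147, and the other 28796124 to 28796149. The segment is in coding sequence and can be shifted by up to 6 bases without changing either form. The capitals mark the placement nearest the 5′ end of the transcript, which is not the one at 28796122 to 28796147.
XBP1 unspliced form: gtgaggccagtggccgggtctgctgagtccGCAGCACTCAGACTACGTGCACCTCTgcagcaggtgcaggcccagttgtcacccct
XBP1 spliced form: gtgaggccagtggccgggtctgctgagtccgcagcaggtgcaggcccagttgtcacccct

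Nearly all XBP1 counts were assigned to transcripts that hold the segment. Over the 23 libraries these took 20886.6 estimated counts, and the transcripts without it took 424.0, a share of 1.99%. The share was 0, 1.73 and 2.26% in the 3 CDK-TCIP1 libraries at 4 h, against 0.773, 1.06 and 7.25% in the 3 DMSO libraries. The library at 0 allows a share of up to 0.311% (3 counts, counting error only). A single DMSO library held the highest share of all 23, and the others overlapped with the CDK-TCIP1 libraries. The means were 1.33 ± 1.18% with CDK-TCIP1 and 3.03 ± 3.66% with DMSO (SD, n = 3 each; exact two-sided permutation test, p = 0.7, where 0.1 is the smallest this design allows). Without that DMSO library (replicate 3) the difference changed sign, to 0.412 percentage points. Against the 4 Neg libraries, which averaged 1.64 ± 1.65%, the difference was -0.31 percentage points (exact permutation p = 0.829), and it changed sign without CDK-TCIP1 replicate 3 or Neg1 replicate 2. A difference of the size seen between these groups was not detectable beyond the spread of their libraries. At 2 h the share was 0.682 and 2.31% at 10 nM, 0 to 3.16% at 30 nM, and 2.83, 4.15 and 4.89% at 100 nM, against 0.368 to 3.82% with Neg1 and Neg2. The 100 nM libraries lay above the 10 nM ones and overlapped with those of 30 nM and of Neg1 and Neg2. At 4 h the Neg1 libraries (2.2 to 3.69%) lay above the Neg2 libraries (0 to 0.658%). These differences were not tested. The main unspliced transcript had log2 fold changes of 0.09 ± 0.12 against DMSO at 4 h and of -0.89 ± 0.11 at 100 nM for 2 h against Neg1 and Neg2, much as the whole gene did.

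**Figure D2:**
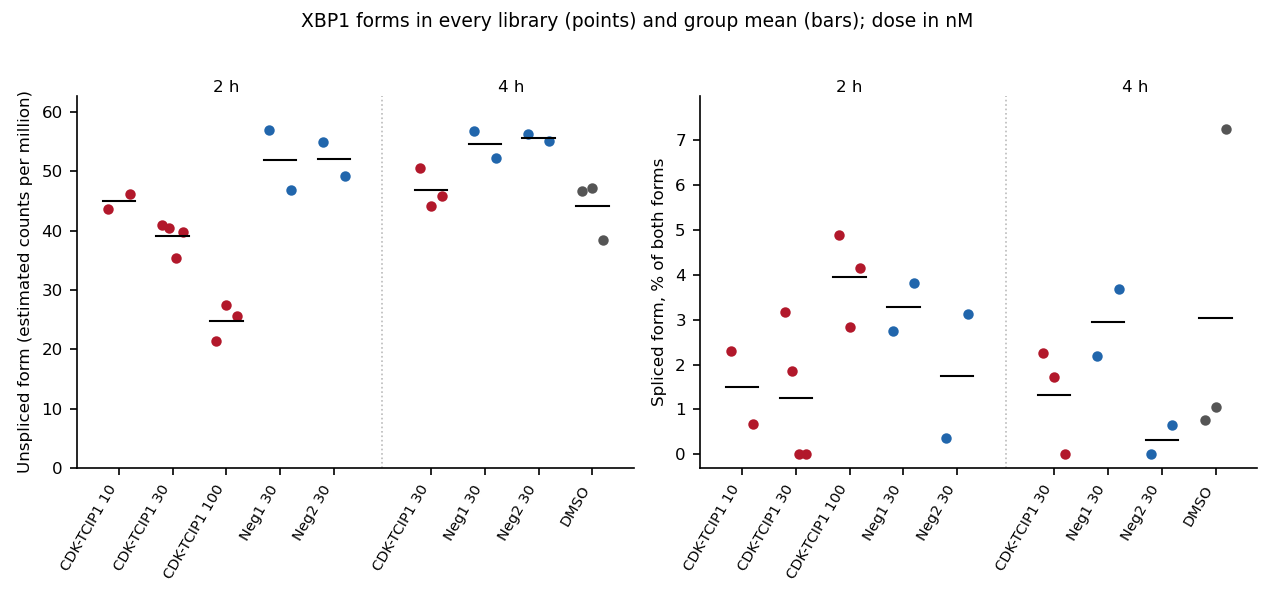
XBP1 in every library (points) with group means (bars): level of the form that holds the segment, in CPM (left), and the share of the spliced form in both forms in percent (right). The unspliced form is lowest at 100 nM for 2 h, and the spliced share lies between 0 and 7.25% in every library.

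The HSP70 and HSP90 chaperones and their partners had 6 of 9 genes lower and 1 higher against DMSO. HSPA5 (BiP), the HSP70 of the ER (ENSG00000044574, chromosome 9, 125234853 to 125241330, minus strand), had 625, 669 and 672 CPM with CDK-TCIP1 at 4 h, against 913, 1050 and 1070 CPM with DMSO. Every CDK-TCIP1 library was below every DMSO library. The log2 fold change was -0.63 ± 0.06 (edgeR adjusted p = 1.52e-08), a fall by 35.2%. HYOU1, which resets HSPA5 after each cycle of ATP use (ENSG00000149428, chromosome 11, 119044189 to 119057202, minus strand), had 43.7, 48.9 and 54.8 CPM with CDK-TCIP1, against 65.5, 69.6 and 79.9 CPM with DMSO. These groups did not overlap either, and the log2 fold change was -0.55 ± 0.10 (edgeR adjusted p = 6.63e-05).

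CRELD2, a small ER protein of the stress response (ENSG00000184164, chromosome 22, 49918167 to 49927540, plus strand), had 11.3, 13.4 and 14.6 CPM with CDK-TCIP1 at 4 h, against 16.4, 18.5 and 21.8 CPM with DMSO. The groups did not overlap, and the log2 fold change was -0.53 ± 0.12 (edgeR adjusted p = 0.00113). CRELD2 shares 168 exonic bases with ALG12 on the opposite strand, whose log2 fold change was -0.104 ± 0.147. MANF, which binds HSPA5 and can be secreted, had a log2 fold change of -0.39 ± 0.10, SDF2L1, a partner of the cochaperone DNAJB11, of -0.36 ± 0.10, and DNAJB11 itself of -0.18 ± 0.06. DNAJB11 shares 381 exonic bases with TBCCD1 on the opposite strand, which had -0.187 ± 0.115. The other J-domain cochaperones did not pass the test against DMSO, with -0.16 ± 0.16 for DNAJB9 and -0.05 ± 0.07 for DNAJC3.

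HSP90B1 (GRP94), the HSP90 of the ER, which folds Toll-like receptors and integrins (ENSG00000166598, chromosome 12, 103930107 to 103953645, plus strand), was the exception in this class. It had 508, 520 and 533 CPM with CDK-TCIP1 at 4 h, against 348, 387 and 398 CPM with DMSO. Every CDK-TCIP1 library was above every DMSO library, and the log2 fold change was 0.46 ± 0.05 (edgeR adjusted p = 1.26e-07). HSP90B1 thus moved in the opposite direction to HSPA5, its neighbour in the folding pathway, in the same libraries.

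**Figure D3:**
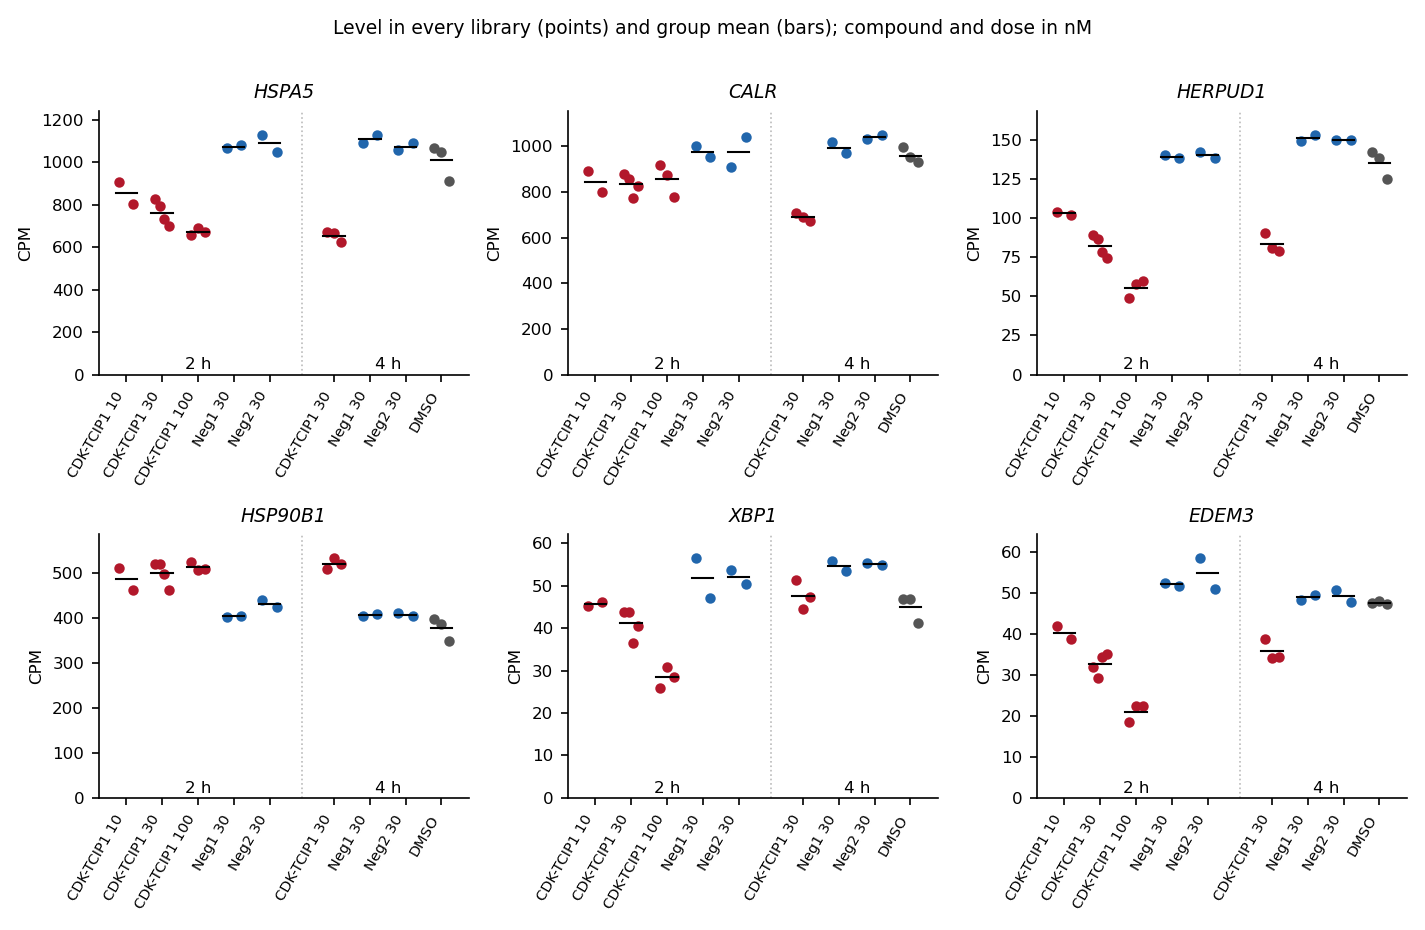
Levels of 6 ER genes in every library (points, CPM from 0) with group means (bars), at 2 h on the left and 4 h on the right of each panel. The CDK-TCIP1 means of HSPA5, CALR, HERPUD1 and EDEM3 lie below, and those of HSP90B1 above, the means of the comparison groups of the same time, and XBP1 is lowest at 100 nM for 2 h.

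Among the disulfide isomerases and oxidases, 5 of 6 fell and none rose against DMSO. ERO1B, an oxidase that recharges the isomerases (ENSG00000086619, chromosome 1, 236215555 to 236281985, minus strand), had 1.23, 2.07 and 2.57 CPM with CDK-TCIP1 at 4 h, against 2.77, 2.80 and 4.13 CPM with DMSO. The groups did not overlap, and the log2 fold change was -0.72 ± 0.27 (edgeR adjusted p = 0.0382), with few counts behind it. Its relative ERO1A had one of -0.27 ± 0.07. The isomerases PDIA4 (-0.26 ± 0.10), PDIA6 (-0.16 ± 0.05) and PDIA3 (-0.16 ± 0.05), which form and rearrange disulfide bonds, fell by less, and P4HB, the most studied of them, had -0.05 ± 0.05 and did not pass. PDIA3 shares 627 exonic bases with ELL3 on the opposite strand, whose log2 fold change was 0.23 ± 0.06. Summed over protein-coding transcripts alone, an alternative chosen after seeing the data, PDIA3 had -0.01 and was not called, and with length-scaled counts ERO1A had -0.05 and was not called.

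The lectin chaperones bind the sugar of new glycoproteins and hold them until folded. CALR, the soluble one, fell with a log2 fold change of -0.48 ± 0.06 (edgeR adjusted p = 7.97e-07). It had 673, 689 and 707 CPM with CDK-TCIP1 at 4 h, against 930, 951 and 997 CPM with DMSO, with no overlap. CALR had the highest level per transcript length of the 40 in DMSO cells, at 716 TPM. CANX, the membrane-bound relative, had a log2 fold change of -0.11 ± 0.05 (edgeR adjusted p = 0.0502), just outside the threshold.

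Of the 11 genes of ER-associated degradation, 3 fell and 1 rose against DMSO. HERPUD1, which organises the ligase complex (ENSG00000051108, chromosome 16, 56932048 to 56944863, plus strand), had 78.7, 80.6 and 90.2 CPM with CDK-TCIP1 at 4 h, against 125, 138 and 142 CPM with DMSO. The groups did not overlap, and the log2 fold change was -0.70 ± 0.07 (edgeR adjusted p = 2.76e-08). EDEM3, a mannosidase that marks glycoproteins for destruction, fell with -0.41 ± 0.08, and SEL1L, the partner of the ligase, with -0.29 ± 0.07. With length-scaled counts SEL1L had -0.06 and was not called. The mannosidase relatives EDEM1 and EDEM2 had 0.01 ± 0.05 and -0.12 ± 0.13 and passed in no CDK-TCIP1 comparison with Neg1 and Neg2 or DMSO.

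SYVN1 (HRD1), the ubiquitin ligase at the centre of this pathway (ENSG00000162298, chromosome 11, 65121780 to 65134533, minus strand), rose. It had 355, 383 and 395 CPM with CDK-TCIP1 at 4 h, against 279, 293 and 309 CPM with DMSO. The groups did not overlap, and the log2 fold change was 0.36 ± 0.06 (edgeR adjusted p = 3.15e-05). SYVN1 shares 398 exonic bases with FAU on the same strand and 356 with MRPL49 on the opposite strand, and their log2 fold changes were 0.37 ± 0.09 and 0.39 ± 0.05. How far reads of these genes entered the value of SYVN1 was not tested. The Derlins, membrane proteins of the exit channel, had 0.02 ± 0.06 (DERL1), 0.07 ± 0.07 (DERL2) and 0.28 ± 0.16 (DERL3). The selenoproteins SELENOS and SELENOK had -0.13 ± 0.09 and -0.17 ± 0.10, and none of the 5 passed. DERL1 shares 396 exonic bases with TBC1D31 on the opposite strand, which had -0.35 ± 0.09.

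The 7 genes of the entry channel split, with 2 higher and 2 lower against DMSO. SEC61A1, the pore of the channel (ENSG00000058262, chromosome 3, 128051641 to 128071683, plus strand), had 246, 253 and 266 CPM with CDK-TCIP1 at 4 h, against 229, 230 and 241 CPM with DMSO. The groups did not overlap, but the log2 fold change was small, at 0.13 ± 0.05 (edgeR adjusted p = 0.0273). SEC61A1 shares 344 exonic bases with RUVBL1 on the opposite strand, which had -0.18 ± 0.06. The small channel subunit SEC61B rose with 0.23 ± 0.07, and SEC61G had 0.12 ± 0.11. Of the signal sequence receptor subunits, which sit beside the channel, SSR1 fell with -0.37 ± 0.07 and SSR3 with -0.19 ± 0.07, whereas SSR2 (0.00) and SSR4 (0.11 ± 0.07) did not pass.

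Of the 22 calls against DMSO, 7 needed a particular library. The call of SEC61A1 was lost without DMSO replicate 2 or 3, CDK-TCIP1 4 h replicate 2, either 10 nM replicate, either Neg1 replicate at 2 h, Neg2 replicate 2 at 2 h or either Neg2 replicate at 4 h (log2 fold change 0.10 in each). That of ERO1B was lost without DMSO replicate 3 (-0.52) or CDK-TCIP1 replicate 1 (-0.47) or 3 (-0.76), and that of SDF2L1 without CDK-TCIP1 replicate 3 (-0.28). DNAJB11 lost its call without DMSO replicate 1 or any CDK-TCIP1 replicate (-0.15 to -0.19), PDIA4 without DMSO replicate 1 or 3 or CDK-TCIP1 replicate 2 or 3 (-0.16 to -0.26), SEC61B without DMSO replicate 1 or 2 or CDK-TCIP1 replicate 1 (0.17 to 0.20), and SSR3 without DMSO replicate 2 or CDK-TCIP1 replicate 1 or 2 (-0.14 to -0.17).

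Against Neg1 and Neg2 at the same dose and time, which share the CDK-TCIP1 libraries with the comparison above, 21 of the 40 genes fell and 3 rose (edgeR, n = 3 against 4 libraries). These are 52.5% and 7.5% of the 40, where 19.7% and 18.5% of all genes did so, and the median log2 fold change was -0.18. The 3 that rose were HSP90B1, SYVN1 and SEC61A1, as against DMSO, and 17 genes fell in both comparisons. How many of all genes tested were called the same way in both was not determined, so these counts do not set the ER genes apart. HSPA5 had 1060 to 1130 CPM in the 4 Neg libraries and a log2 fold change of -0.74 ± 0.06, HERPUD1 had 149 to 153 CPM and -0.86 ± 0.07, and HSP90B1 had 404 to 410 CPM and 0.36 ± 0.05. Neg1 alone gave 15 falls and 2 rises, and Neg2 alone gave 18 and 3. Calls over all 17743 genes were also fewer, with 2996 falls and 2516 rises against Neg1 alone and 2974 and 2551 against Neg2 alone. Against both together there were 3498 and 3282.

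The falls seen against the Neg compounds and not against DMSO were small. They were XBP1, whose values are given above, DNAJC3 (-0.18 ± 0.07), SELENOS (-0.25 ± 0.08) and SELENOK (-0.28 ± 0.09), and whether the 2 comparisons differ for these genes was not tested. Each of the 4 calls was lost without some single library. DNAJC3 needed CDK-TCIP1 replicates 1 and 2, Neg1 replicate 1 and Neg2 replicate 2 (-0.13 to -0.19 without them), SELENOS needed CDK-TCIP1 replicate 1, Neg1 replicate 2 and Neg2 replicate 2 (-0.20 to -0.24), and SELENOK needed CDK-TCIP1 replicates 1 and 2 and Neg1 replicate 1 (-0.22 to -0.26). Among the other falls, the call of PDIA3 was lost without CDK-TCIP1 replicate 1 or Neg2 replicate 2 (-0.11 and -0.13), that of ERO1A without CDK-TCIP1 replicate 1 or 2 or either Neg1 replicate (-0.16 to -0.20), and the rise of SEC61A1 without CDK-TCIP1 replicate 2, Neg1 replicate 2 or either Neg2 replicate (0.10 to 0.13).

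At 2 h the number of ER genes that changed was larger at the higher doses of CDK-TCIP1. At 10 nM, 8 of the 40 fell and 3 rose against Neg1 and Neg2 (given at 30 nM), where 6.76% of all genes fell and 6.79% rose (edgeR, n = 2 against 4 libraries). At 30 nM, 17 fell and 7 rose, where 18.0% of all genes fell and 19.1% rose (n = 4 against 4). At 100 nM, 20 fell and 9 rose, where 22.9% of all genes fell and 22.0% rose (n = 3 against 4). The medians of the 40 were -0.06, -0.13 and -0.22 at the 3 doses. These comparisons share their Neg libraries. Without the 2 libraries that stood apart the counts of falls and rises were 7 and 3, 14 and 6, and 18 and 6. With scaling to library totals alone they were 8 and 2, 22 and 3, and 28 and 6, and that scaling moved the median of all genes at 100 nM to -0.16, against 0.01 in the main fit.

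The 7 genes that fell at all 3 doses were HSPA5, HERPUD1, EDEM3, CALR, MANF, SELENOS and SSR1. The 3 that rose at all 3 were HSP90B1, SEC61B, a channel subunit, and ATF6B, a relative of the sensor ATF6. The log2 fold change was lower at each higher dose in 17 of the 40 genes and higher at each higher dose in 10. How many of all genes tested were called at all 3 doses, or showed these orders, was not determined, and the 3 comparisons share their Neg libraries. The counts of 7 and 3, and of 17 and 10, therefore do not set the ER genes apart from other genes.

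HERPUD1 and EDEM3 were lower at each higher dose. HERPUD1 had 102 and 104 CPM at 10 nM, 74.3, 78.0, 86.8 and 89.2 CPM at 30 nM, and 49.0, 58.1 and 59.5 CPM at 100 nM, against 138 to 142 CPM with Neg1 and Neg2 at 2 h. No library of one dose overlapped with another dose. The log2 fold changes were -0.43 ± 0.08, -0.76 ± 0.06 and -1.33 ± 0.07 (edgeR adjusted p = 2.49e-13 at 100 nM), and the call held at each dose without any single library. EDEM3 had 38.6 and 41.8 CPM at 10 nM, 29.1 to 35.0 CPM at 30 nM, and 18.4, 22.3 and 22.4 CPM at 100 nM, against 51.0 to 58.4 CPM with Neg1 and Neg2. The doses did not overlap here either, with log2 fold changes of -0.41 ± 0.09, -0.71 ± 0.07 and -1.34 ± 0.08.

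HSPA5 had 802 and 910 CPM at 10 nM, 698 to 828 CPM at 30 nM, and 657, 673 and 690 CPM at 100 nM, against 1050 to 1130 CPM with Neg1 and Neg2 at 2 h. All CDK-TCIP1 libraries lay below all Neg libraries, and the log2 fold changes were -0.34 ± 0.07, -0.50 ± 0.05 and -0.68 ± 0.06. HSP90B1 had 463 and 512 CPM at 10 nM, 462 to 521 CPM at 30 nM, and 507, 510 and 525 CPM at 100 nM, against 403 to 440 CPM. In CPM it was above the Neg libraries at each dose, but the doses overlapped, with log2 fold changes of 0.22 ± 0.06, 0.26 ± 0.05 and 0.30 ± 0.05. The deposited TPM of HSP90B1 ran the other way with dose. Their means were 364, 332 and 276 at 10, 30 and 100 nM, against 321 with Neg1 and 336 with Neg2. At 100 nM the mean TPM was thus below that of both Neg compounds, and the cause of this disagreement was not tested.

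Of the 5 sensors and transcription factors, 1 rose at 10 nM, 1 rose and 1 fell at 30 nM, and 1 rose and 4 fell at 100 nM. ERN1 had 1.66 and 2.02 CPM at 10 nM, 1.76 to 2.22 CPM at 30 nM, and 0.891, 1.05 and 1.05 CPM at 100 nM, against 1.24 to 2.32 CPM with Neg1 and Neg2. At 100 nM every library was below every Neg library, with a log2 fold change of -0.86 ± 0.28 (edgeR adjusted p = 0.0152). That call was lost without CDK-TCIP1 100 nM replicate 1 (-0.79), without Neg2 replicate 1 (-0.74) and without both (-0.68), and with length-scaled counts the sign turned, to 0.42. XBP1 had 45.3 and 46.1 CPM at 10 nM, 36.6 to 43.7 CPM at 30 nM, and 26, 28.5 and 30.8 CPM at 100 nM, against 47.2 to 56.5 CPM. The log2 fold changes of XBP1 were -0.19 ± 0.09, -0.34 ± 0.07 and -0.87 ± 0.08 (edgeR adjusted p = 4.4e-09 at 100 nM), of which the 10 nM value did not pass.

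ATF6 had 47.6 and 47.8 CPM at 10 nM, 39.0 to 47.8 CPM at 30 nM, and 35.1, 35.9 and 41.9 CPM at 100 nM, against 41.5 to 47.9 CPM with Neg1 and Neg2. The 100 nM libraries overlapped with the Neg libraries, and the log2 fold change there was -0.23 ± 0.09 (edgeR adjusted p = 0.0369). This call was lost without 100 nM replicate 1 (-0.19) or 2 (-0.18), Neg1 replicate 2 (-0.18) or Neg2 replicate 1 (-0.23) or 2 (-0.24), and without both libraries that stood apart (-0.21). ATF6B had 104, 109 and 115 CPM at 100 nM, against 76.5 to 87.5 CPM with Neg1 and Neg2, a log2 fold change of 0.45 ± 0.06 without overlap. The deposited TPM of ATF6B did not show this rise. Their mean was 49.5 ± 6.84 at 100 nM (SD), against 50.6 ± 0.555 with Neg1 and 49.1 ± 5.71 with Neg2.

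DNAJB9, an HSPA5 cochaperone that binds ERN1, had 3.62, 5.39 and 6.83 CPM at 100 nM, against 11.9 to 15.0 CPM with Neg1 and Neg2. Its log2 fold change was -1.37 ± 0.16, the largest in size of the 40 at this dose, and ERO1B followed EDEM3 and HERPUD1 with -1.27 ± 0.27. DNAJB9 shares 99 exonic bases with PNPLA8 and 183 with THAP5 on the opposite strand, which had log2 fold changes of -0.40 and -0.70 at 100 nM. Genes that rose at 100 nM included the channel subunits SEC61B (0.51 ± 0.07), SSR4 (0.51 ± 0.06) and SEC61G (0.50 ± 0.10) and DERL3 (0.55 ± 0.15). DERL3 shares 2923 of its 3796 exonic bases with SMARCB1 on the opposite strand, whose counts were far higher, and the strand setting of the counting is not given in the sources used here. SSR4 shares 278 exonic bases with IDH3G on the opposite strand, which had a log2 fold change of 0.53 at 100 nM.

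By role, the sensors had 4 of 5 lower and 1 higher at 100 nM, the HSP70 and HSP90 class 6 of 9 lower and 1 higher, and the degradation genes 6 of 11 lower and 2 higher. The isomerases had 2 of 6 lower (ERO1B and PDIA4) and 2 higher (P4HB and PDIA3), and the entry channel 1 of 7 lower (SSR1) and 3 higher. PDIA3 was the single member called in opposite directions at 100 nM for 2 h (0.14 ± 0.04) and at 30 nM for 4 h (-0.13 ± 0.04 against Neg1 and Neg2). That fall was not called with protein-coding transcripts alone (-0.02) or with length-scaled counts (-0.03), and the rise was not called with length-scaled counts (0.14). Scaled to library totals alone, PDIA3 and SYVN1 both had -0.03 at 100 nM, with the sign turned and no call, and P4HB had 0.00. Without both libraries that stood apart, P4HB (0.13), PDIA3 (0.08) and SYVN1 (0.14) were not called.

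Single libraries carried many of the calls at the lowest dose, where n = 2. At 10 nM, HSPA5 (-0.26), EDEM3 (-0.36) and CRELD2 (-0.50) were not called without replicate 2, and MANF (-0.36), HSP90B1 (0.16) and SEC61B (0.24) were not called without replicate 1. CALR (-0.14 to -0.28), SSR1 (-0.21 to -0.31), ATF6B (0.20 to 0.24) and SELENOS (-0.22 to -0.31) lost the call without either or one of these and without some Neg libraries, so that HERPUD1 was the one of 11 calls at 10 nM that held without any single library. At 100 nM, CALR was not called without replicate 3 (-0.12), PDIA3 without replicate 1 (0.10) or Neg1 replicate 1 (0.11), and SYVN1 without any 100 nM replicate (0.14 to 0.15) or any of several other libraries (0.07 to 0.15). At 30 nM for 2 h, 9 of 24 calls needed a particular library, namely those of DERL2, DERL3, DNAJB11, DNAJC3, HYOU1, PDIA4, SEL1L, SYVN1 and SEC61G. Each of these was lost without a CDK-TCIP1 30 nM or Neg library of 2 h (SEL1L and SYVN1 without Neg1 replicate 2), where the falls were -0.11 to -0.23 and the rises 0.12 to 0.37.

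**Figure D4:**
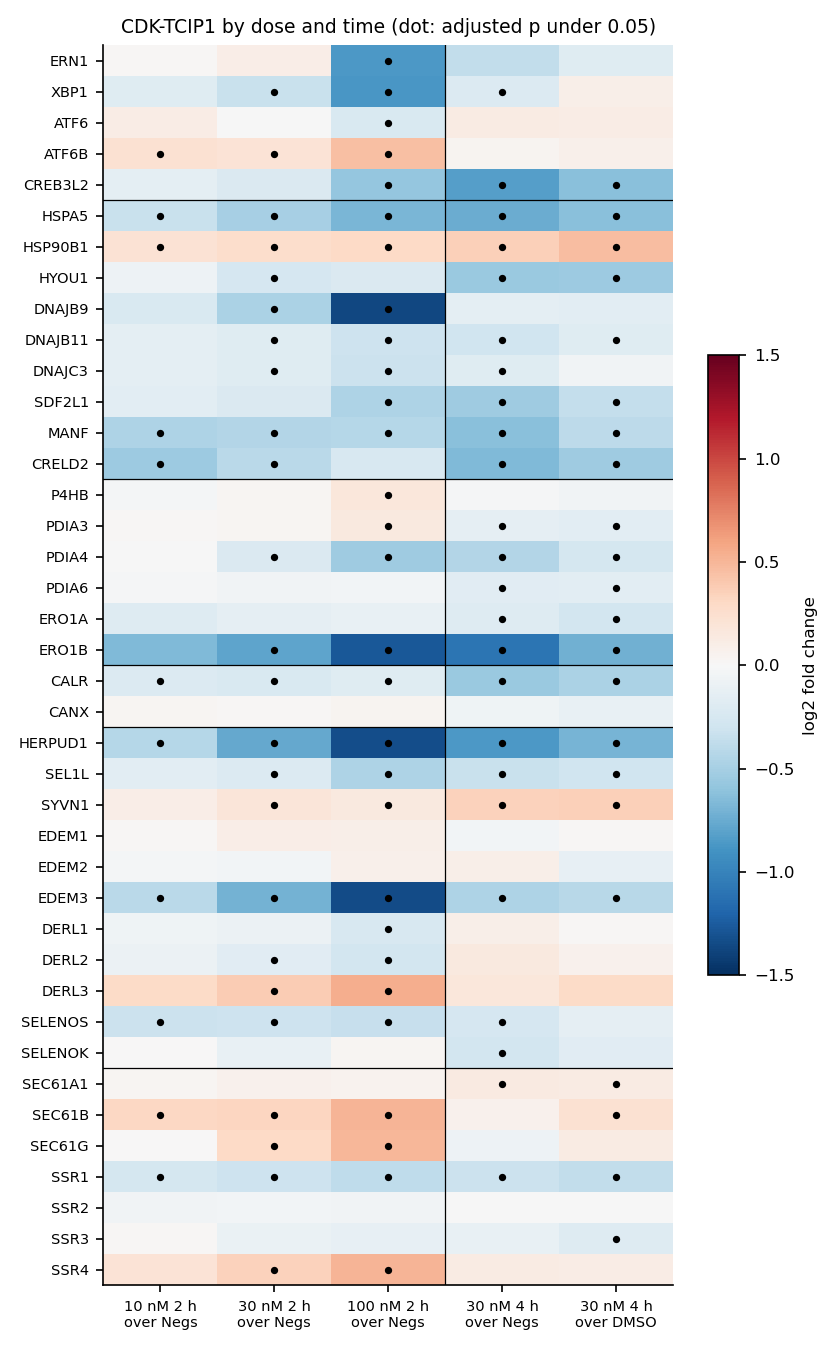
Log2 fold changes of the 40 ER genes (rows, by role) for CDK-TCIP1 at 10, 30 and 100 nM for 2 h and at 30 nM for 4 h over Neg1 and Neg2 of the same time, and at 30 nM for 4 h over DMSO. Dots mark an adjusted p under 0.05. HERPUD1, EDEM3, XBP1 and DNAJB9 darken with dose at 2 h, to -1.33, -1.34, -0.87 and -1.37 at 100 nM.

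Doses were also compared directly, in 3 pairs that share libraries. Between 100 and 10 nM, 8 of the 40 genes were lower and 4 higher at 100 nM, where 25.1% of all genes changed in either direction. The largest falls were DNAJB9 (-1.14 ± 0.19), EDEM3 (-0.94 ± 0.10), HERPUD1 (-0.90 ± 0.08) and XBP1 (-0.68 ± 0.10), and the rises were SEC61G (0.50), SSR4 (0.30), ATF6B (0.22) and P4HB (0.20). Between 100 and 30 nM, 8 were lower and 2 higher, where 12.9% of all genes changed. Between 30 and 10 nM, HERPUD1 alone was lower (-0.33 ± 0.08, edgeR adjusted p = 0.0187), where 2.62% of all genes changed. With scaling to library totals alone, which moved the median of all genes to -0.12 and -0.10, the counts of falls and rises were 18 and 1 for 100 against 10 nM and 13 and 0 for 100 against 30 nM. With length-scaled counts they were 5 and 0 and 4 and 0, and HERPUD1 was not called between 30 and 10 nM. Length-scaled counts also lowered the calls over all genes in these 3 pairs. They fell from 4460 to 2350 for 100 against 10 nM, from 2287 to 831 for 100 against 30 nM, and from 465 to 73 for 30 against 10 nM.

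The effect of 30 nM CDK-TCIP1 over Neg1 and Neg2 differed between 4 h and 2 h in 3 of the 40 genes, where 12.0% of all genes passed this test of the difference. CALR fell further at 4 h, with a log2 fold change of -0.56 ± 0.06, than at 2 h, with -0.23 ± 0.05, and the difference was -0.33 (edgeR adjusted p = 0.00614). CREB3L2 had -0.83 ± 0.15 at 4 h and -0.22 ± 0.14 at 2 h, a difference of -0.62 (edgeR adjusted p = 0.049). DERL2 had 0.14 ± 0.07 at 4 h and -0.17 ± 0.06 at 2 h, a difference of 0.31 (edgeR adjusted p = 0.0307). DERL2 shares 301 exonic bases with MIS12 on the opposite strand, which had 0.33 ± 0.10 at 4 h against DMSO and -0.47 ± 0.10 at 100 nM for 2 h, and its part in the value of DERL2 was not tested. Without both libraries that stood apart, CREB3L2 (-0.59) and DERL2 (0.29) did not pass. For HSPA5, HERPUD1 and HSP90B1 the difference did not pass the test.

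Neg1 and Neg2 were compared with DMSO at 4 h, with each other at 2 h and at 4 h, and between 4 h and 2 h. None of the 40 genes was called by edgeR or by DESeq2 in any of these 5 comparisons, and edgeR called 0.0% of all genes. DESeq2 called 1, 4, 1, 1 and 9 of all genes in these comparisons, in the order Neg1 over DMSO, Neg2 over DMSO, Neg1 over Neg2 at 2 h and at 4 h, and 4 h over 2 h. At an unadjusted p under 0.05, 2 of the 40 passed for Neg1 over DMSO, 5 for Neg2 over DMSO, 6 for Neg1 over Neg2 at 2 h, 0 at 4 h, and 4 for the later over the earlier time. Of all 17743 genes, 770, 1063, 1126, 464 and 1394 passed that unadjusted threshold in these 5 comparisons, in the same order. The differences that these data allow can be read from the 95% intervals of the log2 fold change. For HSPA5 the value was 0.14 (-0.01 to 0.29) for Neg1 over DMSO, 0.09 (-0.06 to 0.24) for Neg2 over DMSO and 0.05 (-0.12 to 0.21) for Neg1 over Neg2 at 4 h. For HERPUD1 the value was 0.16 (-0.01 to 0.33), 0.15 (-0.02 to 0.32) and 0.02 (-0.17 to 0.20) in the same order. XBP1 was among the genes whose unadjusted interval left out 0, at 0.28 (0.08 to 0.48) for Neg1 over DMSO and 0.29 (0.09 to 0.49) for Neg2 over DMSO. Its values with CDK-TCIP1 thus lay near DMSO and below both Neg compounds.

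The promoters of many of these genes are known to hold the ER stress element, which ATF6 and XBP1 bind with the general factor NF-Y. Windows from 250 bases before to 50 after the start site were available for 37 of the 40 genes in a RefSeq table of GRCh38.p14, all but DERL1, DERL3 and PDIA3. Both strands were searched for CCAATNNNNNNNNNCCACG, the ER stress element, for ATTGGNCCACG, its second form, and for TGACGTGG, a site of XBP1 and ATF6. The first was found in 8 of the 37 genes (CALR, CANX, CRELD2, ERO1B, HSP90B1, HSPA5, PDIA6 and XBP1) and in 27 of 35116 windows of the whole table (0.077%). The second was found in HERPUD1, HYOU1 and SDF2L1 and in 19 windows (0.054%), and the third in HYOU1, SSR3 and SSR4 and in 256 windows (0.729%). In HYOU1 the third overlaps with a match of the second.

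The promoters below are printed because they set strong falls, of HSPA5 and HERPUD1, beside the largest rise at 4 h, of HSP90B1. Each line gives the 250 bases before the RefSeq start site, 5′ to 3′ on the gene's own strand, with capitals marking matches of either form of the ER stress element. The HSPA5 line is chr9:125241344-125241593, minus strand, the HERPUD1 line chr16:56931892-56932141, plus strand, and the HSP90B1 line chr12:103930160-103930409, plus strand.
HSPA5 promoter: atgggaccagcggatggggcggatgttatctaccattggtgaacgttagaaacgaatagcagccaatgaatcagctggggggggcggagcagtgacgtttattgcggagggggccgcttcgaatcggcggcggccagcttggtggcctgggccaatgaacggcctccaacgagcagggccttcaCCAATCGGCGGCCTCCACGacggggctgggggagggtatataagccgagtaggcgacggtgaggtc
HERPUD1 promoter: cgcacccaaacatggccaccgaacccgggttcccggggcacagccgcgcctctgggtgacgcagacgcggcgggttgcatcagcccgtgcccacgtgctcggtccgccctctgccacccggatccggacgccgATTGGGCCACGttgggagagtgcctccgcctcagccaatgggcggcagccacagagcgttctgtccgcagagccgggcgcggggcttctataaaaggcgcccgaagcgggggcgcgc
HSP90B1 promoter: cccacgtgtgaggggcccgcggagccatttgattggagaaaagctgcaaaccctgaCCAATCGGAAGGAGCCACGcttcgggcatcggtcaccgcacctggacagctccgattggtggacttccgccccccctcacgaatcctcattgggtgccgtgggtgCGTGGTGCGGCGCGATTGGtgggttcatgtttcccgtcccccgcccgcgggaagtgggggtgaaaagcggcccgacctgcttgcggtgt

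HSP90B1 held 2 matches of the element, HSPA5 and HERPUD1 1 each, so that genes with a match moved both ways. Of the 11 genes with either form, 8 fell and 1 rose at 4 h against DMSO, with a median log2 fold change of -0.48. Of the 26 with a window and neither form, 9 fell and 3 rose, with a median of -0.12. At 100 nM for 2 h the medians were closer, at -0.24 with a match and -0.18 without, and 6 of 11 and 13 of 26 fell. Outside the 40, 33 genes of the table held either form, 19 of them were tested, and 2 fell and 2 rose at 4 h against DMSO, with a median of 0.01. Over all genes tested, 19.3% fell and 17.5% rose at 4 h against DMSO, and 22.9% fell and 22.0% rose at 100 nM for 2 h. The counts by match describe letters in a window and were not tested.

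**Figure D5:**
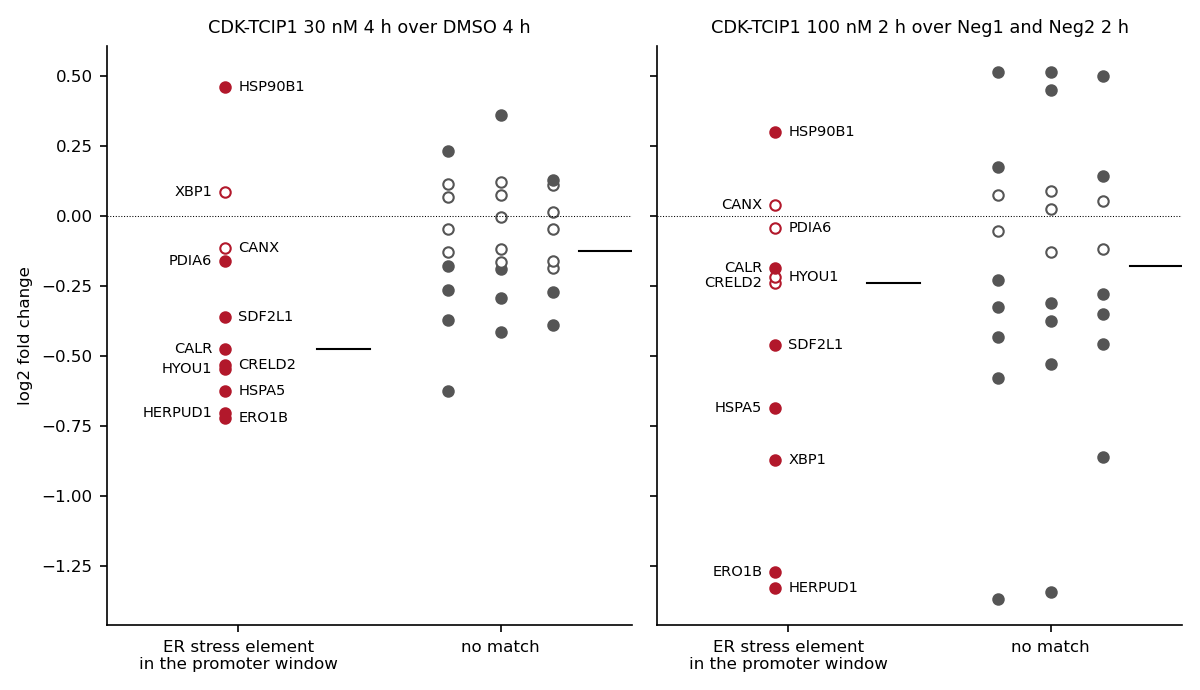
Log2 fold changes of the 37 ER genes with a promoter window, split by a match of either form of the ER stress element (left column of each panel) or none (right column), at 30 nM for 4 h over DMSO (left panel) and at 100 nM for 2 h over Neg1 and Neg2 (right panel). Filled points passed an adjusted p of 0.05 and short bars are medians, which lie at -0.48 and -0.12 in the left panel and at -0.24 and -0.18 in the right one.

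Other genes of the same pathways gave a mixed picture at 4 h against DMSO. In the PERK arm with the site proteases that cut ATF6, 3 of 8 genes fell and 1 rose at 4 h, and 6 fell and 1 rose at 100 nM for 2 h. At 100 nM for 2 h against Neg1 and Neg2, 22.9% of all genes fell and 22.0% rose. DDIT3 (CHOP), the transcription factor at the end of the PERK arm, had a log2 fold change of -1.40 ± 0.12 at 4 h against DMSO (edgeR adjusted p = 2.16e-09) and of -2.69 ± 0.13 at 100 nM. MBTPS2, the site-2 protease, had -0.53 ± 0.13 and -0.82 ± 0.12. PPP1R15B, which directs the removal of phosphate from the translation factor eIF2α, rose at 4 h (0.22 ± 0.07) and fell at 100 nM for 2 h (-1.26 ± 0.07). ATF4, which acts upstream of DDIT3, had -0.11 and -0.12 and did not pass in either.

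Of 24 other folding enzymes, 9 fell and 3 rose at 4 h against DMSO. UGGT1, which checks the folding of glycoproteins, had -0.83 ± 0.05 and QSOX1, an oxidase, -0.75 ± 0.17, against rises of FKBP14, a prolyl isomerase (0.70 ± 0.17), and ERP29, a chaperone of the isomerase family (0.40 ± 0.10). Of 20 other degradation factors, 6 fell and 4 rose. UBE2J1, a ubiquitin-conjugating enzyme that works with SYVN1, had -0.81 ± 0.06 and NGLY1, which removes sugars from exported proteins, -0.72 ± 0.10, while UBE2G2, another conjugating enzyme, had 0.32 ± 0.05 and FAF2, which recruits the extracting ATPase, 0.23 ± 0.07. Of 30 other entry and glycosylation factors, 6 fell and 5 rose. STT3B, a catalytic subunit of the enzyme that adds sugar chains, had -0.60 ± 0.06 and SRPRB, a subunit of the signal recognition particle receptor, -0.54 ± 0.07, while SRP68, a protein of that particle, had 1.26 ± 0.08, the largest rise in these lists. Over all genes tested, 19.3% fell and 17.5% rose in this comparison.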

How the data were processed

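Per the labels' protocols, the libraries were made from poly(A) RNA and read in pairs on a NovaSeq. The submitters' processing notes name FastQC, cutadapt, kallisto and DESeq2 without versions. The authors deposited, per library, kallisto's estimated counts, TPM and effective lengths for 227912 transcripts. The transcript set and the strand setting of the counting are not stated in those notes or labels, so reads of overlapping genes may be shared. Here 205964 transcripts were matched by ID to GENCODE 29 (GRCh38), and the unmatched held 1.16 to 1.28% of the estimated counts.

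Estimated counts were summed per gene (per transcript for XBP1) and rounded to whole numbers. One fit of all 23 libraries with a coefficient per group and 14 residual degrees of freedom was made with edgeR 4.0.16 (TMM, filterByExpr, quasi-likelihood test) in R 4.3.3, with Benjamini-Hochberg adjustment over 17743 genes and a threshold of 0.05. Library sizes bound the precision, and the biological coefficient of variation was 0.0988. Reads carry no molecular identifiers, so floors cover counting error only. P-values measure the spread between libraries, which may be technical, since the labels do not say that replicates were separate cultures. CPM use library totals scaled by TMM, and TPM were used as the authors deposited them. Scripts were tested on simulated data.

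Values in every library are given for ERN1, XBP1, ATF6, HSPA5 and the up to 6 largest rises and 6 largest falls called against DMSO and in the same direction against Neg1 and Neg2 at 4 h. CALR, EDEM3, DNAJB9, ATF6B and the 2 h levels were added after their values were seen. The members and all gene lists were chosen with earlier results of these data known. Alternatives were DESeq2 1.42.0, other scalings and filters, length-scaled counts, a replicate block, and leaving out libraries.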

Additional observations from a re-analysis of the deposited data

Results flagged for a closer look

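With 4 libraries, the CDK-TCIP1 30 nM 2 h group was the one large enough to look for a library far from the others, and 40 genes were looked at there. The lowest library of DNAJB11 (81.1 CPM) and the highest of SYVN1 (368 CPM) and of SSR4 (105 CPM) stood apart by Dixon's criterion of 0.829. Chance alone flags about 1 in 20 groups, and 3 of 40 were flagged here.

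The effect of 30 nM CDK-TCIP1 over Neg1 and Neg2 differed between 4 h and 2 h in CALR (a log2 difference of -0.328, edgeR adjusted p = 0.00614), in CREB3L2 (-0.616, edgeR adjusted p = 0.049) and in DERL2 (0.309, edgeR adjusted p = 0.0307). CALR kept its call under every alternative run. CREB3L2 and DERL2 each lost theirs when some single libraries were left out.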

How the results depend on the processing

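Of the 40 genes, 22 were called at 30 nM for 4 h against DMSO, 24 against Neg1 and Neg2, and 11, 24 and 29 at 10, 30 and 100 nM for 2 h. Leaving out single libraries gave 18 to 23, 19 to 24, 4 to 12, 19 to 25 and 25 to 30. Without single libraries the falls at 4 h ranged from 14 to 19 and from 16 to 21, and the rises from 2 to 4 in both comparisons (2 without DMSO replicate 2 against DMSO). The rises against Neg1 and Neg2 at 4 h were 5 with protein-coding transcripts alone. Length-scaled counts gave 15, 18, 5, 16 and 21 calls, with 12 falls and 3 rises at 4 h against DMSO and 16 and 2 against Neg1 and Neg2. They also lowered the calls over all genes, to 4481, 4685, 1024, 4478 and 6067 of 18411. The main fit called 6535, 6780, 2403, 6582 and 7959 of 17743. Of the 40 genes, 7 were called at 10 nM with only the groups compared. The 3 changes of effect with time were 6 with no filter, 1 with length-scaled counts, 5 with only the groups compared and 6 with DESeq2, and 1 to 6 without single libraries. Length-scaled counts turned ERN1 to 0.543 at 4 h against DMSO and to 0.418 at 100 nM, and library totals alone turned PDIA3 (-0.030) and SYVN1 (-0.029) at 100 nM; the cause was not tested. The XBP1 spliced share difference was -2.825 to 0.412 percentage points against DMSO (0.412 without DMSO replicate 3) and -0.85 to 0.379 against Neg1 and Neg2 (0.360 without CDK-TCIP1 4 h replicate 3, 0.379 without Neg1 replicate 2, and 0.080 with TPM shares). Same-numbered libraries did not deviate together (correlations of -0.042 to 0.044 over genes). This measure showed no pairing but cannot exclude it, and in groups of 2 libraries the deviations mirror each other by construction. With the replicate block the counts of calls were 23, 23, 11, 19 and 30, and 4 for the change with time. Few counts limit ERN1, ERO1B and the spliced share.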

Other observations

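Among genes that move proteins out of the ER and back, 17 of 18 were tested, and 4 fell and 2 rose at 30 nM CDK-TCIP1 for 4 h against DMSO, with a median log2 fold change of 0.02. Over all genes tested, 19.3% fell and 17.5% rose in that comparison. SEC24D, a coat protein of vesicles that leave the ER, had -0.81 ± 0.08 (edgeR adjusted p = 1.36e-08), and ARF4, a small GTPase of the early secretory pathway, had -0.53 ± 0.07 (edgeR adjusted p = 1.71e-06). TMED10, a cargo receptor, rose with 0.30 ± 0.05, and SEC13, another coat protein, with 0.17 ± 0.06. At 100 nM for 2 h against Neg1 and Neg2, SEC24D fell with -0.34 ± 0.08, whereas ARF4 had -0.02 ± 0.07 and did not pass. In that comparison 5 of the 17 rose and 5 fell, where 22.0% of all genes rose and 22.9% fell.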
